A study of Mus musculus with 6 samples.

Results

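The 7 genes of the RANKL, OPG and CSF1 axis were followed through single-cell libraries of healing bone: the ligands Tnfsf11 (RANKL), Csf1 (M-CSF) and Il34, the decoy receptor Tnfrsf11b (OPG), the receptors Tnfrsf11a (RANK) and Csf1r, and the transcription factor Nfatc1. They were matched by symbol, and all 7 were among the 52081 genes that all 6 libraries list. Femoral fracture calluses were taken at 14 days post-fracture (dpf) from 12-week-old male mice and their cells were sequenced from the 3′ end, with a unique molecular identifier (UMI) on every captured transcript. The 3 control libraries are labelled wt and come, by the study's methods, from Piezo1 f/f mice. The 3 libraries labelled knockout carry the genotype "Col2CreERT; Piezo3-/-" in their labels, whereas the study's methods describe Piezo1 f/f mice crossed with a tamoxifen-inducible Cre under the Col2a1 promoter. By the study's figure legends both groups were given tamoxifen (75 mg/kg) daily for 5 days, starting on day 5. Its methods name only the knockout mice for the first injection. The promoter is that of a cartilage collagen, so the deletion is directed at cells that express Col2a1 and not at osteoclasts or their precursors. Nothing in the labels says that the 3 libraries of a group came from separate mice. The study's methods give 3 mice per group for this experiment, whereas its results give other numbers. The p-values therefore measure the spread between libraries.

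RANKL, made by mesenchymal and some lymphoid cells, binds RANK on monocyte and macrophage lineage cells and drives them to fuse into osteoclasts, while OPG is a secreted decoy that captures RANKL before it reaches RANK. CSF1 and IL-34 are separate ligands of the same receptor, CSF1R, which keeps monocytes, macrophages and osteoclast precursors alive and dividing. NFATc1 lies downstream of RANK and turns on genes for cell fusion, acid secretion and matrix breakdown, and in a callus the osteoclasts that result remove calcified cartilage and woven bone.

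On GRCm38, in the GENCODE M21 annotation, Tnfsf11 lies at chr14:78277445-78308043 on the minus strand, Csf1 at chr3:107741048-107760469 on the minus strand and Il34 at chr8:110741829-110805924 on the minus strand. Tnfrsf11b lies at chr15:54250619-54278484 on the minus strand and Tnfrsf11a at chr1:105780718-105847981 on the plus strand. Promoter windows of 250 bases before the start were taken from RefSeq (GRCm38.p6) for Tnfsf11, Csf1 and Tnfrsf11a. Positions and windows of Csf1r and Nfatc1 are not reported here. The windows of Tnfsf11 and Csf1 are shown because these ligands were both abundant in the same osteoprogenitor-like cells, described below by library. Capitals mark the matches to the motifs searched, 5′ to 3′ on the gene's strand.

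Tnfsf11 (chr14:78308044-78308293): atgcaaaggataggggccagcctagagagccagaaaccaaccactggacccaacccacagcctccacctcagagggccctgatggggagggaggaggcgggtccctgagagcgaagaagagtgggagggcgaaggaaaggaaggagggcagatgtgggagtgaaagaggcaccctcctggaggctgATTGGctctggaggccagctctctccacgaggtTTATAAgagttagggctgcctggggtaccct

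Csf1 (chr3:107760470-107760719): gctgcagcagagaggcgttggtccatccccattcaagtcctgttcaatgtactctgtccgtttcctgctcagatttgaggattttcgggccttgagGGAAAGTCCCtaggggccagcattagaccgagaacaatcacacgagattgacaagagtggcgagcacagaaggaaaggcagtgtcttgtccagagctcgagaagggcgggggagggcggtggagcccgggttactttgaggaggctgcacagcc

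Both strands were searched for TGTGGT, the core of the RUNX motif, for GAGGAA, the core of the PU.1 motif, for the CCAAT box and the NF-kB motif, and for TATAA. The Tnfsf11 window held CCAAT on the opposite strand, 64 to 60 bases before the start, and TATAA on both strands in overlapping copies, 31 to 26 bases before it. The Csf1 window held 1 NF-kB match on the opposite strand, 154 to 145 bases before the start, and the Tnfrsf11a window held none of the 5 motifs. Among 32841 windows of this length, 33.9% held CCAAT, 22.8% TATAA, 14.05% the RUNX motif, 23.3% the PU.1 motif and 7.25% the NF-kB motif. These are matches of letters, and their use in callus cells was not measured.

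The libraries held 57626530 to 103784364 UMIs, and 41863 of 46944 barcodes were kept as cells, 3109 to 10065 per library with a median of 4849 to 9797 UMIs per cell. Pairs of libraries shared 4 to 36 barcodes, at most 0.383% of the smaller library. Piezo1, the targeted gene, stood at 66.8, 42 and 50.3 UMIs per 1000000 UMIs (CPM) in chondrocyte-like and hypertrophic chondrocyte (HTC)-like cells of controls 1 to 3 and at 131, 54.6 and 46.9 in those of knockouts 1 to 3, so it was not lower under the knockout label. A 3′ count outside the deleted part of the gene would not register the deletion, and where that part lies is not given in the sources used here. Every direction below rests on the labels. Knockout library 2 stood apart: it had 21 chondrocyte-like cells where the others had 274 to 1231, and the macrophage markers summed to 929.6 CPM in these cells against 140.0 to 194 in the other 5 libraries.

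Cells were clustered without the 7 members and named from marker genes. Levels are given as CPM, that is, UMIs of a gene per 1000000 UMIs of a cell class in a library, over libraries with at least 10 cells of the class, as mean ± SD. A single level of a cluster within a class is instead taken from the UMIs of all libraries pooled. Libraries with more UMIs weigh more in it, so it can differ from the mean over libraries. Because 3′ tags do not depend on transcript length in a known way, levels of different genes were not compared. The stromal-like cells (19331) were split further into, among others, 2967 chondrocyte-like, 1226 HTC-like, 2043 osteoblast-like, 426 osteocyte-like, 3013 periosteal-like, 1140 fibroblast-like (led by Saa3, Cxcl5 and Mmp3) and 1385 osteoprogenitor-like cells. The osteoprogenitor-like cluster was led by Mmp9, Cxcl12 and Gdpd2. The receptor-bearing classes were 4511 macrophage-like, 1383 monocyte-like and 1551 osteoclast-like cells, the last led by Acp5, Atp6v0d2 and Ctsk.

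**Figure D1:**
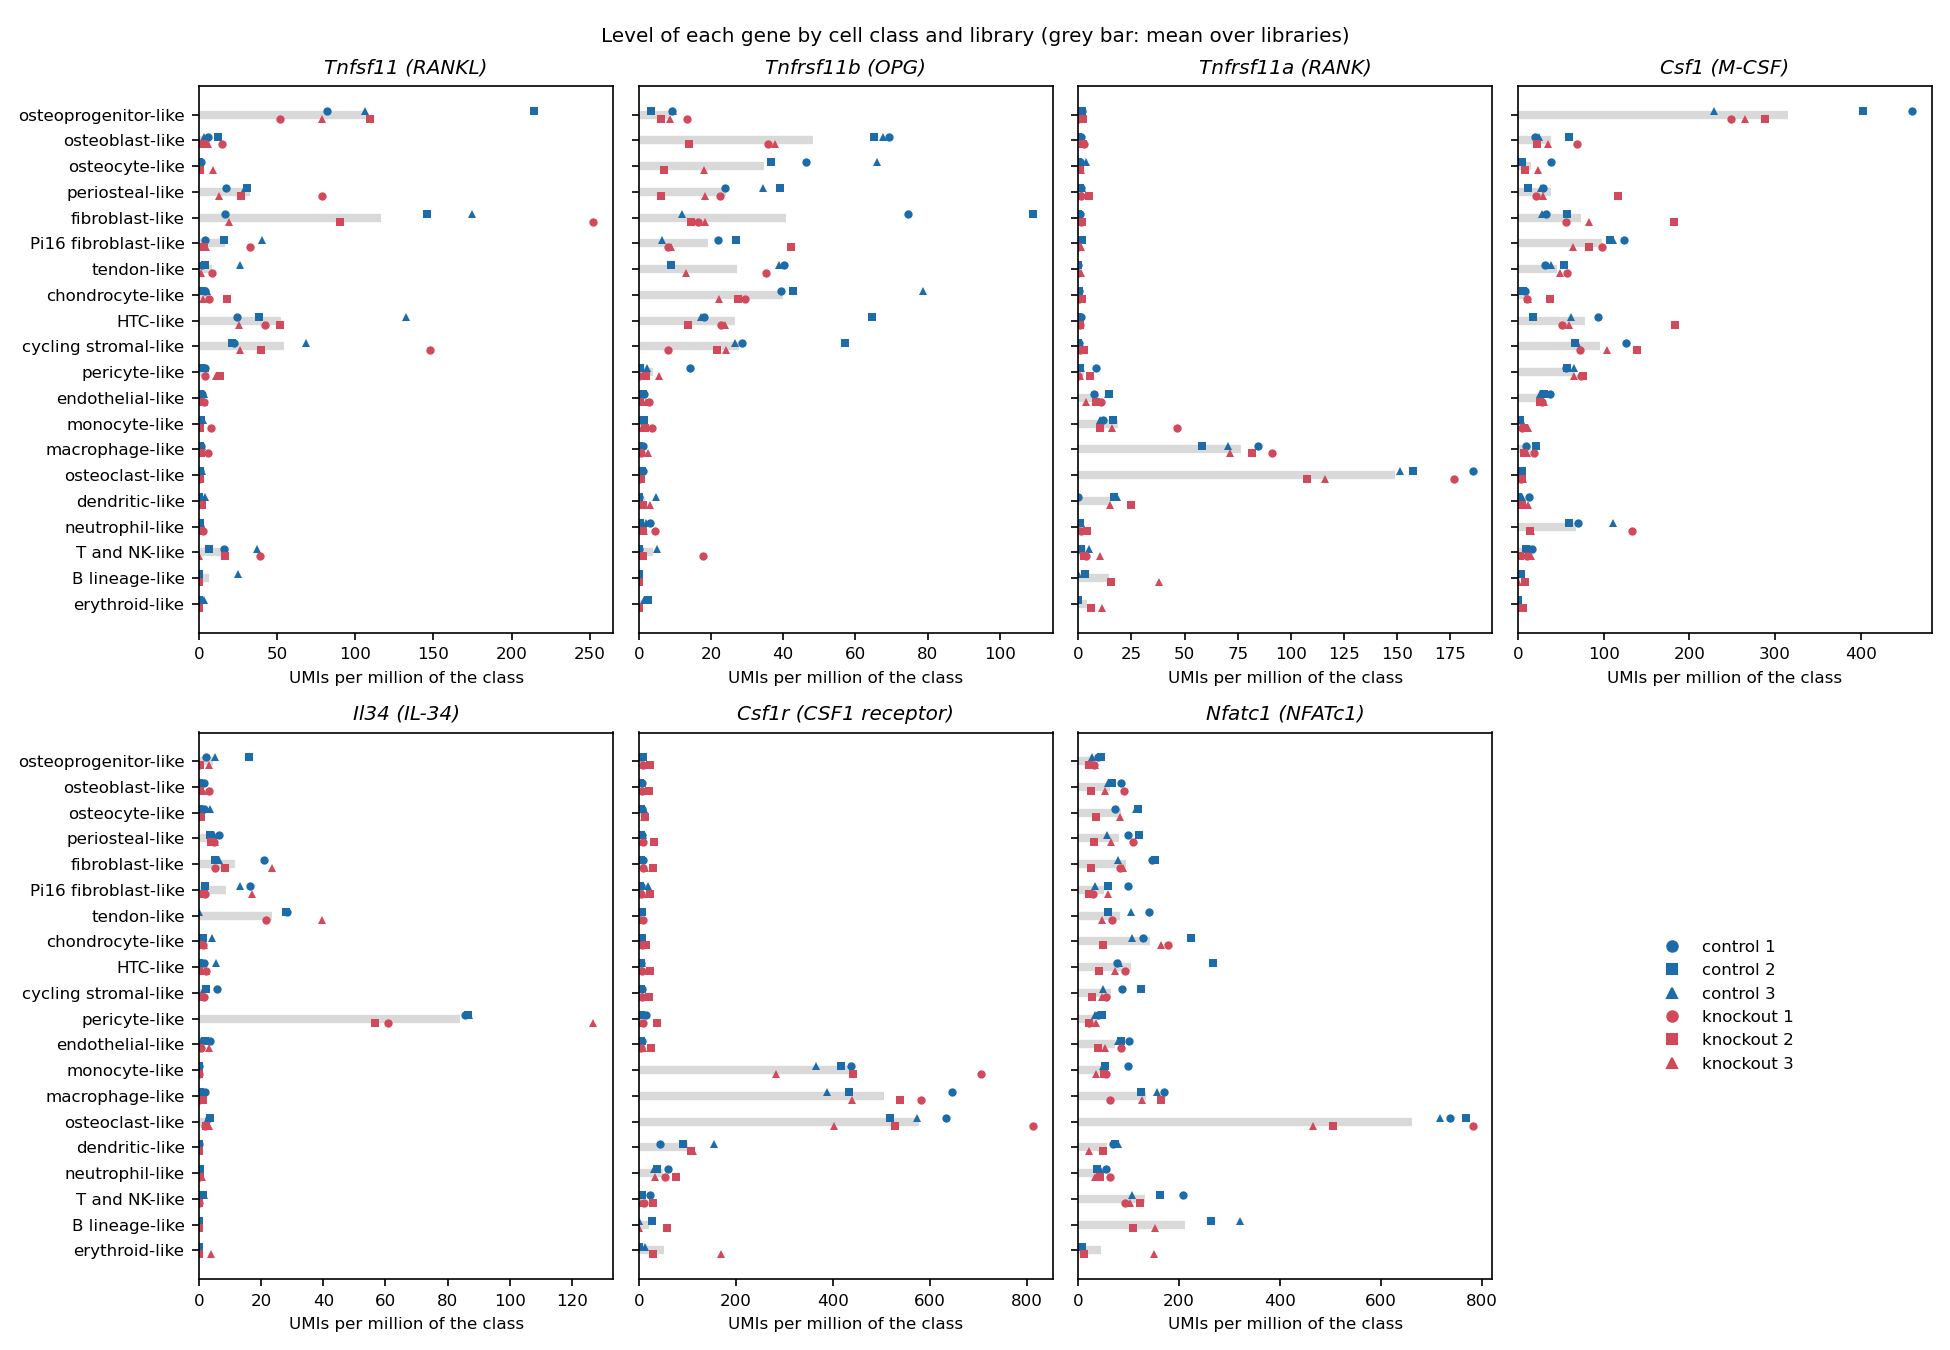
Level of each of the 7 genes (CPM, 1 panel per gene) in 20 cell classes; points are libraries, coloured by label, and grey bars are means over libraries. Tnfrsf11a and Csf1r are highest on average in the osteoclast-like and macrophage-like classes, Nfatc1 in the osteoclast-like class, Tnfsf11, Csf1 and Tnfrsf11b in stromal classes, and Il34 in pericyte-like cells.

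Tnfsf11, the gene of RANKL, was found mainly in 2 stromal classes, with a mean of 116.5 CPM ± 92.5 (SD, n = 6) in fibroblast-like cells and 107 ± 56.6 in osteoprogenitor-like cells. In fibroblast-like cells the level was 16.9, 146 and 174 CPM in controls 1 to 3 and 252, 90.1 and 19.2 in knockouts 1 to 3. Control 1 and knockout 3 were low and the other 4 high, so that each label held both low and high libraries. In osteoprogenitor-like cells it was 81.5, 214 and 106 CPM in the controls and 51.6 (from 19 cells), 109.6 and 78.3 under the knockout label. Here no library was low. The ranges of these classes overlapped, and fibroblast-like cells were higher in 2 of 6 libraries, so their order is not settled: without doublet removal, at higher clustering resolutions, without control 3 or without knockout 1 the osteoprogenitor-like class came out highest.

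Below these classes came cycling stromal-like cells (54.2 CPM ± 49.3), HTC-like cells (52.3 ± 40.5) and periosteal-like cells (32.7 ± 23.7), whose ranges overlapped each other. HTC-like cells fell into 2 clusters. The cluster led by Chil1, Lcn2 and Mmp3 had 61.0, 54.4 and 135 CPM of Tnfsf11 in the controls and 75.2, 51.1 and 52.5 under the knockout label, and 87.1 over all libraries. The cluster led by Ihh and Col10a1 had 17.5 over all libraries and was the lower in 5 of 6, with 52.6 in knockout 2. Among periosteal-like clusters, that led by Ccn3 and Sfrp1 held 56.1 CPM over all libraries and that led by Tnn and Aspn 17.0, with the former higher in 5 of 6 libraries. Bone-forming and cartilage cells were low: osteoblast-like cells had 7.28 CPM ± 4.81, osteocyte-like cells 2.10 ± 3.75 (18 UMIs in all) and chondrocyte-like cells 6.23 ± 5.82. T and NK-like cells, which can make RANKL when activated, had 16.0, 6.63 and 37.3 CPM in the controls and 38.95, 16.5 and 0 under the knockout label, from 53 UMIs in all (a count of 0 in knockout 3 allows up to 15.5 CPM). In osteoclast-like cells the level was 0.709 CPM ± 0.606.

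Counted by source, 39.6% of the 11034 Tnfsf11 UMIs lay in fibroblast-like cells, 13.9% in osteoprogenitor-like, 13.8% in periosteal-like, 11.4% in cycling stromal-like and 10.7% in HTC-like cells. The fibroblast-like share ran from 2.52% (95% Wilson interval 1.67% to 3.78%) in knockout 3 to 59.2% (57.6% to 60.8%) in control 3, which alone gave 748 of the 1140 fibroblast-like cells. The osteoprogenitor-like share ran from 0.608% (0.406% to 0.911%) in knockout 1 to 50.5% (47.8% to 53.2%) in knockout 2. These intervals cover counting error only. Each label held libraries in which one or the other class was the main source. For detection, cells with fewer than 1000 UMIs (5017 of 41863) were left out and the others thinned to 1000 UMIs, pooled over libraries. Of these, 15.2% of fibroblast-like cells and 9.02% of osteoprogenitor-like cells had a Tnfsf11 UMI, against 0.0674% of osteoclast-like cells, a class not known to make RANKL. Without thinning, over all cells of each class, these shares were 66.8%, 41.9% and 1.48%, at a median depth of 17742.5, 7968 and 16183 UMIs.

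**Figure D2:**
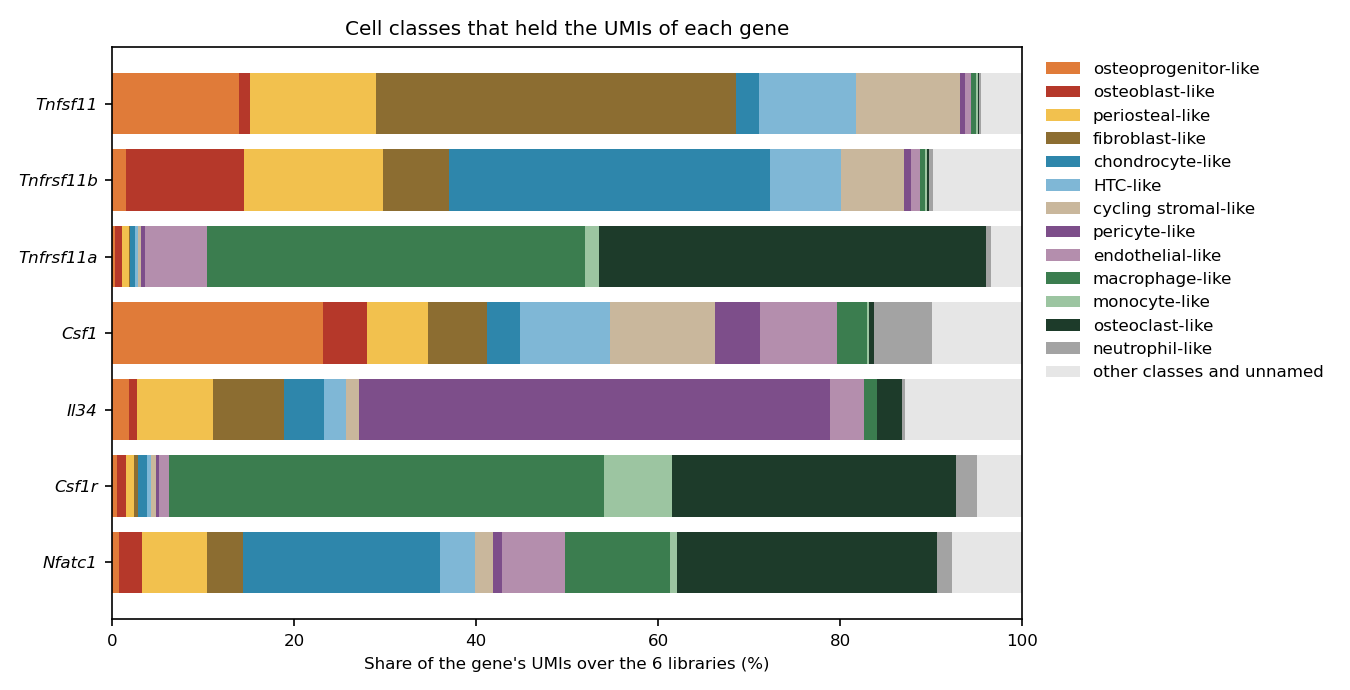
Share of each gene's UMIs (percent, all libraries pooled) that lay in each cell class, stacked to 100 for each of the 7 genes. Tnfsf11, Csf1 and Tnfrsf11b draw on several stromal classes, Il34 more on pericyte-like cells than on any other class, and Tnfrsf11a and Csf1r mainly on osteoclast-like and macrophage-like cells.

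Csf1, the main ligand for CSF1R, was highest, among classes held by more than 1 library, in the same osteoprogenitor-like cells that carried Tnfsf11. It was 460.3, 403 and 229 CPM in controls 1 to 3 and 249 (from 19 cells), 288 and 265 in knockouts 1 to 3. Every library of this class lay above every library of the next, the Pi16 fibroblast-like cells, and the mean of 316 CPM ± 93.6 (SD, n = 6) was 3.22 times the mean there. Pi16 fibroblast-like cells had 124, 107.5 and 111 CPM in the controls and 98.6, 82.7 and 64.7 under the knockout label, with no overlap between the labels. In that class 3.55% of the genes tested lay lower in every knockout library. Cycling stromal-like (96.2 ± 31.7), HTC-like (78.1 ± 57.2) and fibroblast-like cells (73.2 ± 56.8) followed with overlapping ranges.

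Outside the stroma, pericyte-like cells had an even Csf1 level of 55.7 to 75.4 CPM and endothelial-like cells one of 25.5 to 37.1. Neutrophil-like cells varied more, with 70.0, 60.1 and 111 CPM in the controls and 133, 13.8 and 15.1 under the knockout label. Knockouts 2 and 3 were low and the other 4 libraries high. Within this class the transcript lay in the cluster led by Retnlg and Il1b, at 167 CPM, and the clusters led by Ngp and by Camp held 9.68 and 9.95. Osteoclast-like and monocyte-like cells, which carry the receptor, had 4.04 ± 1.52 and 4.88 ± 4.10. In all, 23.1% of the 18279 Csf1 UMIs came from osteoprogenitor-like cells, 11.5% from cycling stromal-like, 9.88% from HTC-like and 8.50% from endothelial-like cells. As a mean over libraries the osteoprogenitor-like share was 20.8% ± 10.4 (SD, n = 6). Thinned to 1000 UMIs, 24.3% of osteoprogenitor-like cells had a Csf1 UMI against 0.202% of osteoclast-like cells (unthinned 72.2% and 5.996%).

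Il34, the alternative ligand of CSF1R, was highest in pericyte-like cells, which were led by Rgs5, Acta2 and Myh11. It stood there at 85.7, 86.6 and 87.1 CPM in controls 1 to 3 and at 61.0, 56.6 and 127 in knockouts 1 to 3. The controls were alike, and the knockout libraries lay on both sides of them. This range did not overlap that of tendon-like cells, the next class, which had 28.3, 28.1 and 0 CPM (up to 38.9 from a count of 0) in the controls and 21.6 and 39.5 in knockouts 1 and 3 (knockout 2 had 5 such cells). Fibroblast-like (11.6 ± 8.37), Pi16 fibroblast-like (8.65 ± 7.62) and periosteal-like cells (4.75 ± 0.989) were lower. Osteoclast-like cells had 2.77 CPM ± 0.581 and monocyte-like cells 0 of 1383 cells with a UMI, which allows a share of up to 0.217%. Pericyte-like cells gave 51.8% of the 2523 Il34 UMIs of all libraries pooled, although they were 3.98% of the cells. As a mean over libraries their share was 45.1% ± 18.5 (SD). This mean was 40.2% without control 2 and 48.9% without knockout 1. Thinned to 1000 UMIs, 8.46% of pericyte-like cells had an Il34 UMI against 0.117% of macrophage-like cells (unthinned 40.2% and 0.709%).

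Over all cells of a library, Il34 was 7.54, 8.59 and 8.22 CPM in the controls and 3.59, 1.27 and 6.14 under the knockout label. Every knockout library lay below every control, as did 3.87% of the genes tested. Beside this, pericyte-like cells made up 3.39%, 6.82% and 7.64% of cells in controls 1 to 3 and 1.32%, 0.795% and 2.20% in knockouts 1 to 3, also without overlap. The shares of the other named classes overlapped between the labels. The pericyte-like share was not tested, and an exact permutation test of 3 against 3 libraries has a smallest p of 0.1. Its part in the Il34 result was not tested either. Within the pericyte-like cells the labels overlapped, at 86.5 CPM ± 0.675 (SD, n = 3) in the controls and 81.5 ± 39.4 (n = 3) under the knockout label. Stromal-like cells as a whole also had less Il34 in each knockout library (0.803 to 3.67 CPM) than in each control (4.91 to 5.63), as did 2.67% of the genes tested there. Of 10 sets of cells in which Il34 had enough UMIs to be tested, only these 2 pooled sets showed this order. In the other 8, fibroblast-like and periosteal-like cells among them, the labels overlapped. By edgeR's quasi-likelihood test the log2 fold change (knockout against control) was -0.99 ± 0.55 (SE) over all cells and -0.96 ± 0.52 in stromal-like cells, both with a Benjamini-Hochberg adjusted p of 1.00. Over all cells it was -0.58 without knockout 2 and -1.68 without knockout 3.

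Tnfrsf11b, the gene of OPG, was spread over the skeletal lineages. Osteoblast-like cells were highest on average (48.3 CPM ± 22.6, n = 6), then fibroblast-like (40.8 ± 41.1), chondrocyte-like (40.0 ± 20.4) and osteocyte-like cells (34.8 ± 23.2, n = 5), and all neighbours in this order overlapped. Without control 3 the fibroblast-like cells came out highest. By source, 35.3% of the 7019 Tnfrsf11b UMIs lay in chondrocyte-like, 15.2% in periosteal-like and 12.99% in osteoblast-like cells. In knockout 2, which had few chondrocyte-like cells, those shares were 2.41% (95% Wilson interval 1.44% to 4.01%), 2.41% (1.44% to 4.01%) and 44.3% (40.3% to 48.4%). The osteoprogenitor-like cells that were rich in Tnfsf11 and Csf1 were low in OPG, at 3.39 to 13.5 CPM.

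Within lineages the decoy followed the cluster as much as the class. Of the osteoblast-like clusters, that led by Ifitm5, Car3 and Col22a1 had 39.9 CPM with all libraries pooled and that led by Bglap and Bglap2 11.5. The former was higher in each of the 5 libraries that had enough cells of both. Knockout 2, the lowest library of the class, gave 702 of the 1368 cells of the former and 534 of the 675 of the latter. Of the periosteal-like clusters, that led by Tnn and Aspn had 42.1 CPM and that led by Ccn3 and Sfrp1 9.31, the reverse of their order for Tnfsf11, and the former was higher in 6 of 6 libraries. Of the chondrocyte-like clusters, that led by Ucma had 47.9 CPM and that led by Hapln1 18.4 over all libraries, and the former was higher in each of the 5 libraries that had enough cells of both (knockout 2 had 6 cells in the Ucma cluster). Macrophage-like and osteoclast-like cells were at 0.938 ± 0.885 and 0.693 ± 0.448 CPM. Thinned to 1000 UMIs, 4.06% of chondrocyte-like and 2.41% of osteoblast-like cells had a Tnfrsf11b UMI, against 0.0466% of macrophage-like cells (unthinned 37.4%, 20.5% and 0.820%).

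Between the labels, Tnfrsf11b was the member with the most repeated difference. In osteoblast-like cells it was 69.3, 65.2 and 67.7 CPM in controls 1 to 3 and 35.9, 13.98 and 37.6 in knockouts 1 to 3. The controls were almost equal and every knockout library lay below them, with knockout 2 lowest. The same order held within the larger cluster, led by Ifitm5, at 80.7 to 86.9 CPM in the controls and 20.99 to 40.5 under the knockout label. In the cluster led by Bglap the labels overlapped (10.3 to 31.8 against 7.32 and 23.8, without knockout 1, which had 9 cells there). The controls had 18, 20 and 40 cells of that cluster. Knockout 2 gave 1236 of the 2043 osteoblast-like cells. In chondrocyte-like cells, the target of the Cre, it was 39.4, 42.6 and 78.8 CPM against 29.5, 27.6 and 22.3, and in periosteal-like cells 23.8, 39.2 and 34.4 against 22.6, 6.21 and 18.5. Here the labels lay next to each other without overlap, and control 3 was the highest chondrocyte-like value. Within the chondrocyte-like cells the same order held in the Ucma cluster (56.9 to 92.9 CPM against 27.8 and 44.1, without knockout 2, which had 6 cells there). It also held in the Hapln1 cluster (19.96 to 39.7 against 15.3 to 18.7). For the Ifitm5, Ucma and Hapln1 clusters the share of all genes in the same order was not counted. Their cells are those of the classes, so they do not repeat the result independently. Within the periosteal-like cells the labels overlapped in every cluster: the Tnn cluster had 34.1 to 63.0 CPM in the controls and 9.63 to 46.2 under the knockout label, and the Ccn3 cluster 7.20 to 20.7 against 5.57 to 7.63. The Tnn cluster, the richer of them in OPG, was also a smaller part of the periosteal-like cells in each knockout library (13.5% to 34.3%) than in each control (42.1% to 51.7%), and its part in the difference of the class was not tested. In cycling stromal-like cells it was 28.5, 57.1 and 26.6 CPM against 8.24, 21.7 and 24.3, and in osteocyte-like cells 46.3, 36.6 and 65.9 against 7.10 and 18.2 (knockout 1 had 9 such cells).

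Of 13 sets of cells in which Tnfrsf11b had enough UMIs to be tested, the stromal-like cells as a whole included, the knockout libraries lay below the controls without overlap in 6, and lay above them in 0. These sets share cells and libraries and are not independent of each other. The share of all tested genes that lay lower in every knockout library was 4.3% in osteoblast-like, 5.66% in chondrocyte-like, 2.2% in periosteal-like, 2.49% in cycling stromal-like, 15.5% in osteocyte-like (3 libraries against 2) and 2.67% in stromal-like cells. In the 7 other sets, among them HTC-like, fibroblast-like and osteoprogenitor-like cells, the labels overlapped. Fibroblast-like cells had 74.6 and 109 CPM in controls 1 and 2 but 12.1 in control 3, which gave most of their cells.

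By edgeR's test the log2 fold change of Tnfrsf11b was -1.18 ± 0.33 (SE) in osteoblast-like cells, with a 95% interval from -1.93 to -0.43. Its unadjusted p of 0.0062 became 0.964 after Benjamini-Hochberg adjustment over 10360 genes. In chondrocyte-like cells it was -0.97 ± 0.32 (interval -1.68 to -0.25) and in stromal-like cells -0.72 ± 0.26 (interval -1.32 to -0.11), with adjusted p-values of 1.00. None of these passed the threshold. The 10 osteoclast markers summed in osteoblast-like cells to 256 to 403 CPM in the controls and to 323, 738 and 499 in knockouts 1 to 3. Knockouts 2 and 3 thus lay above every control, and knockout 1 among them. The 10 macrophage markers summed to 244 to 370 in the controls and 210 to 366 under the knockout label. The part of these markers in the Tnfrsf11b difference was not tested. With each library left out in turn the log2 fold change of Tnfrsf11b stayed between -1.48 and -0.87 in osteoblast-like cells, the smallest of them without knockout 2. In chondrocyte-like cells it was -0.97 without knockout 2 and -0.59 without control 3. Over all cells it was -0.39 ± 0.44, where chondrocyte-like and osteoblast-like cells enter in different shares.

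**Figure D3:**
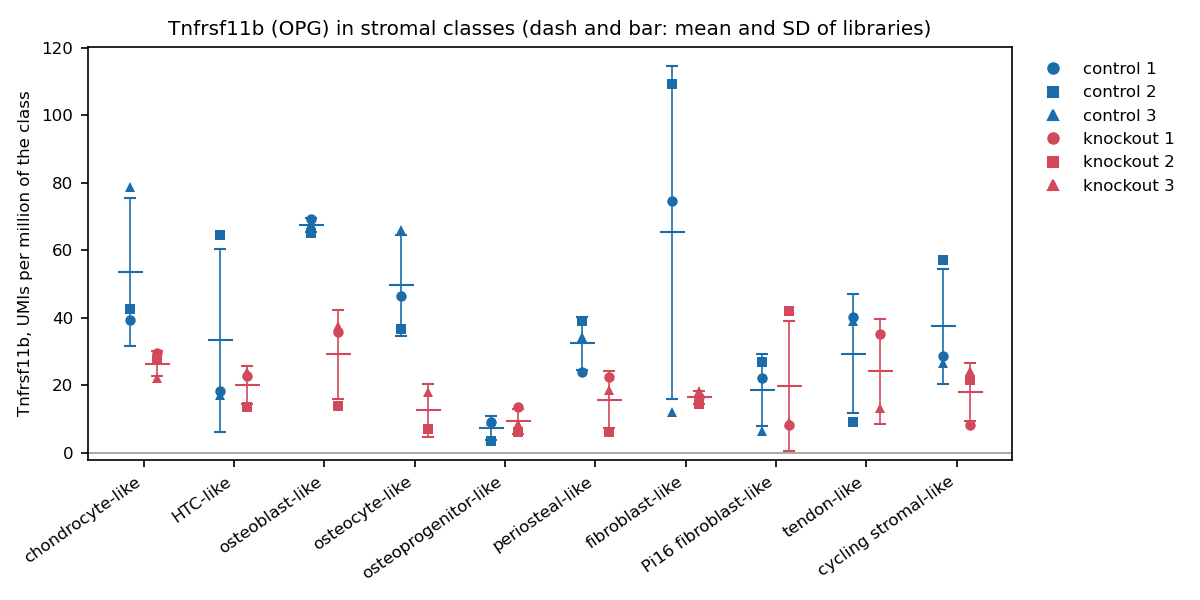
Tnfrsf11b level (CPM) in 10 stromal classes; each point is a library, coloured by label, with the mean and SD of each label. The knockout points lie below the control points in osteoblast-like cells (13.98 to 37.6 against 65.2 to 69.3) and overlap them in fibroblast-like and HTC-like cells.

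The ratio of Tnfsf11 to Tnfrsf11b UMIs sets ligand against decoy within 1 library and does not depend on its depth. Each gene is captured at a rate of its own, so the ratio was compared between libraries and classes and its value against 1 has no meaning here. Over all cells it was 0.342, 0.710 and 3.27 in controls 1 to 3 and 3.70, 2.25 and 0.595 in knockouts 1 to 3. Control 3 and knockouts 1 and 2 were the high libraries, so the labels overlapped. The log2 difference was 0.88 over all cells and 0.87 in stromal-like cells, with p = 0.6 in each, also after adjustment over these 2 comparisons, by a two-sided exact permutation test over 20 assignments (n = 3 and 3, smallest p 0.1). Without control 3 the difference over all cells was 1.79 and without control 1 it was 0.16.

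On this ratio some cell classes lay apart and others overlapped. Osteoprogenitor-like cells had a ratio of 3.62 to 56.3, osteoblast-like cells one of 0.0521 to 0.405 and chondrocyte-like cells one of 0.0522 to 0.655. The lowest osteoprogenitor-like library (knockout 1, with 19 such cells) lay above the highest library of the other 2 classes. Fibroblast-like cells ran from 0.230 to 15.2 and HTC-like cells from 0.596 to 7.66, and both overlapped the osteoprogenitor-like range. Periosteal-like cells had 0.715, 0.786 and 0.858 in the controls and 3.49, 4.24 and 0.708 under the knockout label. Knockouts 1 and 2 were above the controls there, and knockout 3 was next to them. In chondrocyte-like cells the ratio was 0.0994, 0.0522 and 0.0640 in the controls and 0.209, 0.655 and 0.115 under the knockout label, without overlap. Knockout 2, the highest of these, rests on 21 cells. In this class the labels overlapped for Tnfsf11 (2.17 to 4.94 CPM against 2.54 to 17.7) and lay apart for Tnfrsf11b, as given above. The ratio was not tested within this class, and no share over other pairs of genes was counted.

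**Figure D4:**
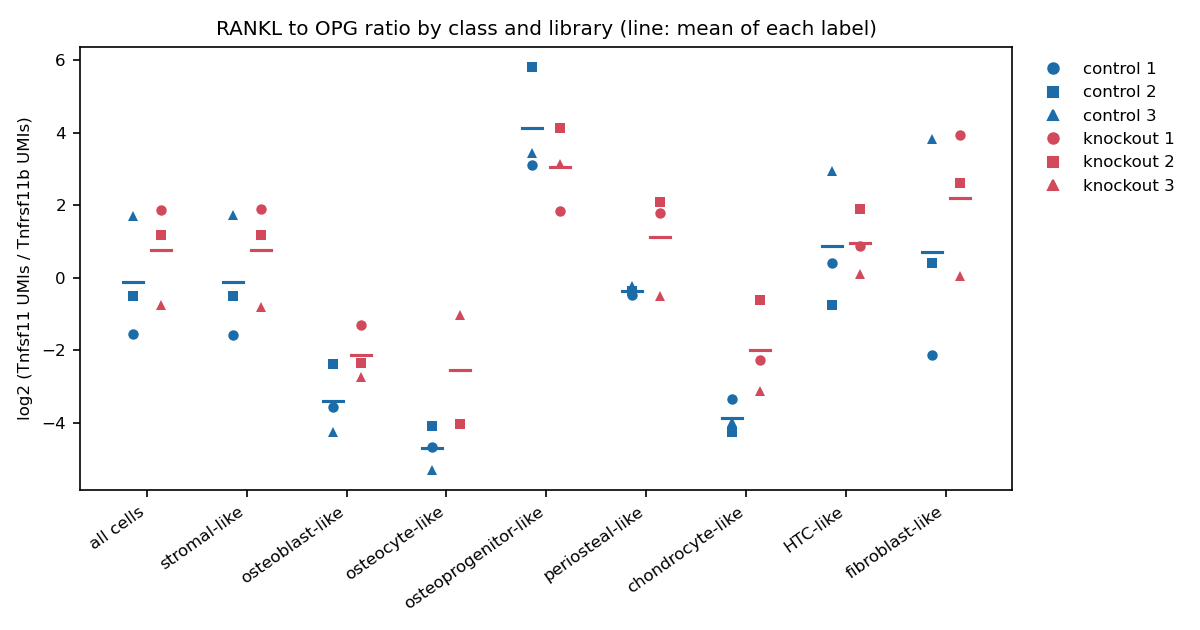
Log2 of the ratio of Tnfsf11 to Tnfrsf11b UMIs (0.5 added to each) by cell class; points are libraries, coloured by label, and lines are means of the libraries of each label. All 6 osteoprogenitor-like points lie above all osteoblast-like and chondrocyte-like points, and over all cells the labels overlap.

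Tnfrsf11a, the gene of RANK, was highest in osteoclast-like cells. It stood there at 185, 158 and 151 CPM in controls 1 to 3 and 177 (from 31 cells), 108 and 116 in knockouts 1 to 3. Macrophage-like cells followed with 84.6, 58.4 and 70.4 against 91.1, 81.8 and 71.4. The osteoclast-like level was above the macrophage-like level in all 6 libraries, without overlap, and its mean of 149 ± 31.5 was 1.96 times as high. Monocyte-like cells had 18.4 ± 14.02 CPM, raised by knockout 1 at 46.5, and dendritic-like cells 15.0 ± 9.12 (n = 5). The step from macrophage-like to monocyte-like cells was also without overlap. Together osteoclast-like (42.6%) and macrophage-like cells (41.5%) held most of the 7844 Tnfrsf11a UMIs.

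Among macrophage-like cells, the cluster led by Ube2c and other cell cycle genes had more Tnfrsf11a than the larger cluster led by C1qa. It had 97.3, 72.6 and 112 CPM in the controls and 115, 98.2 and 89.6 under the knockout label, against 78.7, 55.6 and 58.2, then 88.4, 69.3 and 60.6. The Ube2c cluster was higher in 6 of 6 libraries, though control 1 had only 22 and knockout 1 only 11 of its cells. Endothelial-like cells, which held 6.83% of the UMIs, had 3.78 to 14.3 CPM as a class. Within them a cluster of 173 cells led by Ccl21a, Mmrn1, Lyve1 and Prox1, genes known from lymphatic endothelium, had 49.5, 49.2 and 51.0 CPM in the 3 libraries with enough cells, and a cluster led by Selp and Ackr1 had 11.9 to 38.0. Stromal-like cells had 1.29 ± 0.713. Thinned to 1000 UMIs, 13.96% of osteoclast-like and 6.02% of macrophage-like cells had a UMI, against 0.0338% of chondrocyte-like cells (unthinned 74.3%, 38.2% and 1.38%).

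Csf1r was shared by the whole monocyte, macrophage and osteoclast lineage. Osteoclast-like cells had 632, 518 and 574 CPM in controls 1 to 3 and 812 (from 31 cells), 528 and 402 in knockouts 1 to 3. Macrophage-like cells had 645, 433 and 388 against 581, 539 and 439, and monocyte-like cells 437, 416 and 366 against 704, 440.4 and 283. The 3 classes overlapped throughout, and osteoclast-like cells were above macrophage-like cells in 3 of 6 libraries. Below them, without overlap, came dendritic-like cells (102 ± 40.3, n = 5), whose range reached into that of neutrophil-like cells (49.3 ± 17.99). Macrophage-like cells held 47.8% and osteoclast-like cells 31.2% of the 43790 Csf1r UMIs.

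Within the macrophage-like cells the order of the clusters for Csf1r was the reverse of that for RANK. The Ube2c cluster had 229 to 374 CPM and the cluster led by C1qa 418 to 775, and the Ube2c cluster was lower in 6 of 6 libraries. The ligand Csf1 was low in both receptor classes, at 14.8 ± 6.53 in macrophage-like and 4.04 ± 1.52 in osteoclast-like cells.

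In stromal-like cells Csf1r was low, at 6.70, 5.89 and 8.17 CPM in the controls and 9.29, 22.6 and 9.30 under the knockout label, so that each knockout library lay above each control, as did 1.25% of the genes tested. The same order was seen in chondrocyte-like, HTC-like and osteoprogenitor-like cells, where 1.58%, 2.42% and 2.89% of genes lay higher in every knockout library, and in erythroid-like cells (18.8%, 2 libraries against 2). The gaps were narrow in the stromal classes. The highest control and the lowest knockout library had 5.83 and 6.66 CPM in chondrocyte-like and 6.04 and 7.02 in HTC-like cells. In osteoprogenitor-like cells they had 8.80 and 8.97, and knockout 1 held only 19 of these cells. In the other 13 sets of cells tested the labels overlapped. The 10 macrophage markers, of which all 10 had UMIs in the stromal-like cells of every library, summed there to 217 to 299.9 CPM in the controls and 337 to 475 under the knockout label, likewise without overlap. Knockout 2 was highest in both. In chondrocyte-like cells the macrophage markers overlapped between the labels (140.0 to 193.9 CPM against 167.0 to 929.6). The 10 osteoclast markers did so in stromal-like cells (355 to 492 against 360 to 1526). The part of these markers in the result was not tested. The edgeR log2 fold change of Csf1r in stromal-like cells was 1.12 ± 0.44 (SE), with an unadjusted p of 0.0363 and an adjusted p of 1.00, and 0.49 without knockout 2.

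Nfatc1 marked the osteoclast end of the axis. It was 738, 769.8 and 717 CPM in osteoclast-like cells of controls 1 to 3 and 782, 505 and 465 in those of knockouts 1 to 3. Knockouts 2 and 3, with 688 and 220 such cells, were the lowest. Knockout 1, with only 31, was the highest, so the labels overlapped through this library. No library was as low as the next class, the B lineage-like cells, which had 263 and 320.1 CPM in controls 2 and 3 and 108 and 152 in knockouts 2 and 3 (250 cells, 130 UMIs). The share of genes in B lineage-like cells that lay lower in every knockout library was 18.5% (2 libraries against 2).

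Chondrocyte-like cells came after these with 128, 223 and 107 CPM in the controls and 177, 49.2 and 164 under the knockout label, and with a median of 20203 UMIs per cell they held 21.6% of the 52917 Nfatc1 UMIs, against 28.6% in osteoclast-like and 11.6% in macrophage-like cells. Without knockout 2 the chondrocyte-like cells were the largest source. Among macrophage-like cells the Ube2c cluster again stood apart. It had 372, 348 and 443.5 CPM in the controls and 126 (from 11 cells), 300.2 and 256 under the knockout label. The cluster led by C1qa had 50.4 to 81.6. The Ube2c cluster was higher in all 6 libraries. The Prox1 cluster among endothelial-like cells had 289, 199.5 and 211 CPM, and the endothelial-like cells led by Plvap 35.9 to 81.0. Thinned to 1000 UMIs, 42.3% of osteoclast-like, 15.4% of chondrocyte-like and 4.52% of monocyte-like cells had an Nfatc1 UMI (unthinned 88.0%, 78.6% and 22.6%).

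Over all cells Nfatc1 lay at 124, 126 and 129 CPM in the controls and at 112, 117 and 117 under the knockout label. Each knockout library lay below each control, as for 3.87% of the genes tested, but TMM normalization put the log2 fold change at 0.00 ± 0.21, so the direction depended on the scaling. In dendritic-like cells it also lay lower in both knockout libraries (21.1 and 49.3 CPM) than in the controls (68.8 to 77.8), as did 16.3% of the genes tested (3 libraries against 2). In osteoclast-like cells the edgeR log2 fold change of Nfatc1 was -0.32 ± 0.23 (SE), with an adjusted p of 0.992 and a 95% interval from -0.84 to 0.20.

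Across the 20 classes, the mean levels of Tnfrsf11a and Csf1r varied together (Pearson r = 0.88 on log2(CPM + 10)), as did those of Tnfsf11 and Csf1 (r = 0.73) and of Tnfrsf11a and Nfatc1 (r = 0.66). Tnfsf11 and its decoy Tnfrsf11b had r = 0.47, and Tnfrsf11b and Tnfrsf11a r = -0.58. These describe 20 points that come from the same 6 libraries. Among 14792 genes, those whose pattern over classes was most like that of Tnfsf11 were Podnl1 (r = 0.95), Pappa (0.90) and Grem1 (0.88). The nearest to Tnfrsf11b were Kcnma1, Lox, which codes for a collagen crosslinking enzyme, and Plod2, which codes for a collagen lysyl hydroxylase (each r = 0.96). Those nearest to Csf1 were Olfml2b, Qsox1 and Tlcd2 (0.87 to 0.88), and to Il34 Ccdc141, Dgkb and Lin7a (each 0.95). Nearest to Tnfrsf11a were Slc13a3, Atp6v1c1, which codes for a subunit of the proton pump that acidifies the resorption pit, and Gpr137b (0.96 to 0.97), and to Csf1r the chemokine gene Ccl9 (0.99), Cd68 (0.99) and Flvcr1 (0.97). Nfatc1 had the loosest matches, Coq8a (0.83), Lrrc61 (0.80) and Cog2 (0.79).

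No member differed between the labels past an adjusted p of 0.05 in any of the 8 sets of cells tested with edgeR. These were all cells, stromal-like, osteoblast-like, chondrocyte-like, endothelial-like, macrophage-like, monocyte-like and osteoclast-like cells. Of 44 tests of members, 5 had an unadjusted p under 0.05: Tnfrsf11b in osteoblast-like, chondrocyte-like and stromal-like cells, Csf1 in chondrocyte-like cells and Csf1r in stromal-like cells. Called genes were 0% of the 8298 to 20218 genes tested in each set, and 190 to 762 (1.45% to 5.47%) had an unadjusted p under 0.05. DESeq2 called 0 to 18 genes and 0 members. On data simulated for the 6 sets other than all cells and stromal-like cells, this design found 2.99% to 17.9% of the genes given a log2 change of 1 and 62.7% to 79.1% of those given 2. Over all cells it found 0% and 19.4%, and in stromal-like cells 0% and 32.8%. The differences seen in the members ran from -1.18 to 1.27.

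Tnfsf11, the ligand, showed no difference past the threshold: its log2 fold change was 0.38 ± 0.91 (SE) over all cells, -0.12 ± 0.85 in stromal-like, 0.09 ± 0.65 in osteoblast-like and 0.80 ± 0.61 in chondrocyte-like cells. Under other processing it kept its direction in chondrocyte-like cells (0.25 to 1.59) and turned in the other sets named. Over all cells it was 1.77 without control 3 and turned to -0.87 without knockout 1, -0.0076 without control 1 and -0.0079 without control 2. Csf1 in chondrocyte-like cells was 8.09, 5.95 and 5.83 CPM in the controls and 10.2, 37.4 and 11.3 under the knockout label, without overlap, as for 1.58% of the genes tested. Its log2 fold change was 1.27 ± 0.46 and was 0.78 without knockout 2, whose 21 chondrocyte-like cells gave the highest value. In the receptor cells themselves the log2 fold changes of Tnfrsf11a, Csf1r and Nfatc1 in macrophage-like cells were 0.21 ± 0.20, 0.12 ± 0.25 and -0.31 ± 0.37, and those of Tnfrsf11a and Csf1r in osteoclast-like cells -0.28 ± 0.20 and 0.04 ± 0.25, all with adjusted p-values from 0.992 to 1.00.

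The share of osteoclast-like cells was 1.18%, 1.39% and 5.11% in the control libraries and 0.997%, 6.84% and 2.99% in the knockout libraries. Control 3 and knockout 2 were high, the other 4 lower, and the difference of 1.05 percentage points had p = 0.7 (two-sided exact permutation test, n = 3 and 3, smallest p 0.1). The 2 osteoclast-rich libraries were also among the 3 with the highest ratio of RANKL to OPG over all cells, as was knockout 1, which had the fewest osteoclast-like cells.

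**Figure D5:**
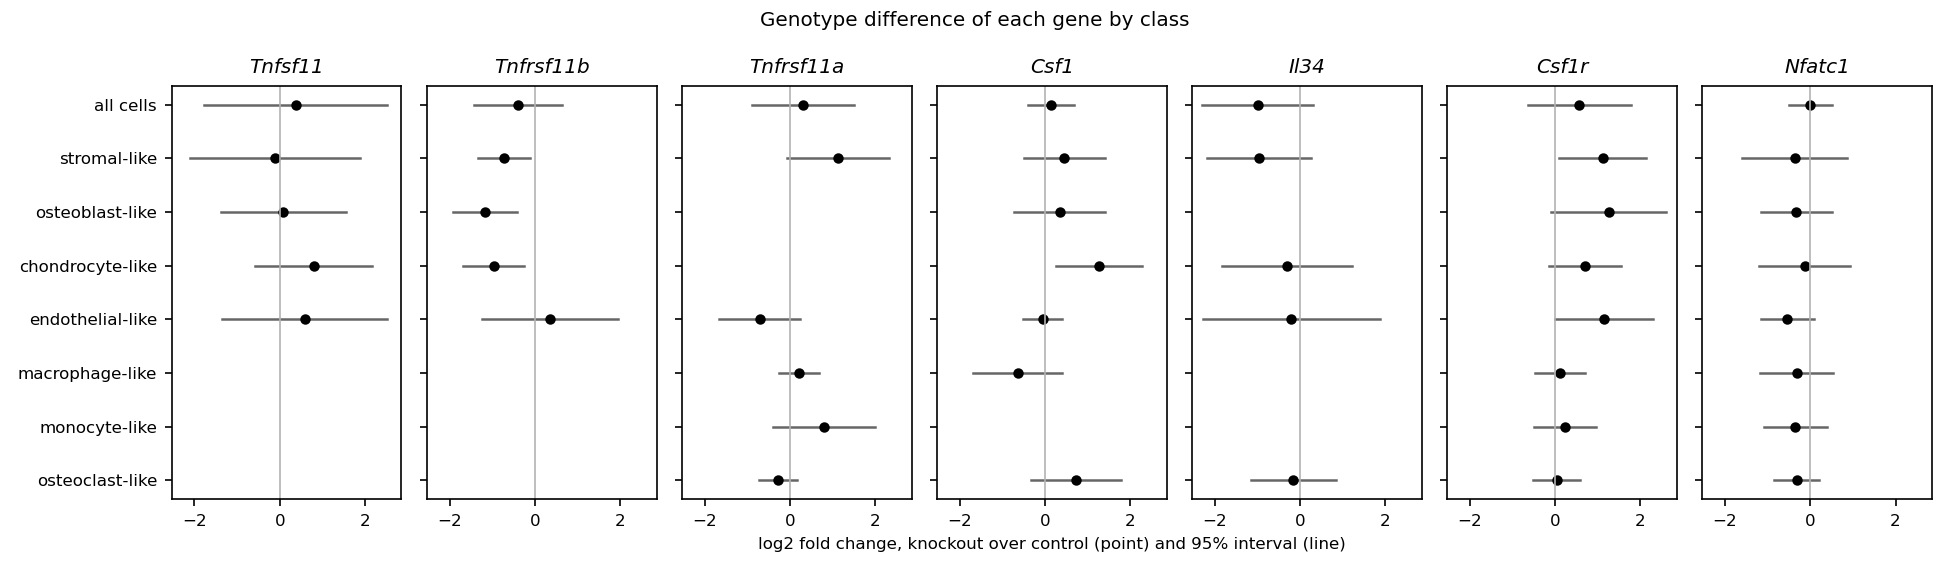
Log2 fold change (knockout against control) of each of the 7 genes in 8 sets of cells, with 95% intervals from edgeR; a gene with too few UMIs in a set has no point. The intervals of Tnfrsf11b in osteoblast-like, chondrocyte-like and stromal-like cells lie below 0 before adjustment, and no adjusted p was under 0.05.

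The wider pathway was followed in 5 lists of 127 genes in all: RANK and NF-kB signalling, ITAM co-stimulation and calcium, NFATc1 partners, repressors and targets, CSF1R and IL34 signalling, and upstream regulators of RANKL and OPG. In each of the 8 sets of cells, 0 genes of every list passed the adjusted threshold in either direction, and 0 to 5 had an unadjusted p under 0.05. Of all genes tested in these sets, 1.45% to 5.47% had such a p. In osteoclast-like cells the median log2 fold change was -0.15 over the 25 tested genes of RANK and NF-kB signalling, -0.04 over 21 genes of ITAM co-stimulation, 0.07 over 23 NFATc1 partners and targets and -0.22 over 25 genes of CSF1R signalling, beside -0.01 over all genes. Lifr, a receptor subunit from the regulator list that was singled out after its value was seen, had the smallest unadjusted p there (0.0033, adjusted 0.992 by edgeR), at a log2 fold change of 1.48 ± 0.38 (SE). Lifr was also among the leading genes of the osteoprogenitor-like cluster. The 9 osteoblast markers summed in osteoclast-like cells to 374 to 1429 CPM in the controls and 1680 to 2282 under the knockout label. For the 14 stromal markers the labels overlapped (1752 to 5459 against 4343 to 6776). The part of such transcripts in the Lifr difference was not tested. In chondrocyte-like cells the medians of RANK and NF-kB signalling and of the regulators of RANKL and OPG were -0.22 and -0.16, beside -0.03 over all genes. Of these lists 0 of 27 and 4 of 25 genes had an unadjusted p under 0.05, beside 273 of all 13986 genes tested there. List medians over all sets ran from -0.29 to 0.39.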

How the data were processed

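Calluses of 3 control and 3 knockout libraries were analysed from the raw UMI counts per gene and barcode that the authors deposited, made with Cell Ranger 6.1.1 for replicate 1 of both groups and 6.1.2 for the others, on GRCm38 per the labels. Replicate 3 of both groups carries another gene list, so the 52081 genes listed in all libraries were used, which hold 97.767% to 99.657% of the UMIs. The members and gene lists were chosen with earlier results of these data known. Barcodes with at least 500 UMIs, 200 genes and at most 20% mitochondrial UMIs were kept (44937 of 46944), and 3074 doublets were removed with Scrublet at 0.8% per 1000 cells. Cells were integrated by reciprocal PCA (Seurat 5.3.0, R 4.3.3) on 2000 variable genes without the members and 30 components, and clustered with leidenalg 0.10.2 (scanpy 1.11.5, Python 3.11.15) at resolution 0.8, and 1.2 within the stromal-like cells. A cluster was named from at least 3 markers of a class, each in at least 25% of its cells and at 2 times the median cluster, and is called "like" that class. A difference from other accounts of these data may come from these rebuilt names.

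UMIs were summed per class and library, with at least 10 cells. Knockout and control were compared on these sums with edgeR 4.0.16 (quasi-likelihood, TMM, filter on low counts), with DESeq2 1.42.0 as an alternative, and p-values were Benjamini-Hochberg adjusted over all genes tested. The scripts were tested on simulated data with 200 changed genes. The text names the 7 members, the 3 genes most like each over classes (highest Pearson r, genes with at least 500 UMIs), and up to 5 list genes per direction past an adjusted p of 0.05, of which there were 0. Levels across classes carry no test. Each library was left out in turn, and normalization, filters, doublet removal, integration and resolution were varied.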

Additional observations from a re-analysis of the deposited data

How the results depend on the processing

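The alternatives were counted for 24 chosen member differences of the 44 tested. Of 372 alternatives, 343 kept their direction and their side of the threshold, 0 passed it and 29 turned, 19 of them with 1 library left out. Among these differences 14 never turned. They included Tnfrsf11b in all, stromal-like, osteoblast-like and chondrocyte-like cells, and Il34 in all and stromal-like cells. Differences outside the 24 were not counted, such as Tnfrsf11b in endothelial-like cells (0.35 ± 0.70, SE) and Il34 in chondrocyte-like, endothelial-like and osteoclast-like cells. Causes of the turns were not tested. Without a filter on low counts edgeR called 48 genes in osteoblast-like, 68 in chondrocyte-like, 54 in endothelial-like, 10 in macrophage-like, 49 in monocyte-like and 68 in osteoclast-like cells, where 0 were called with it. DESeq2 called 18 over all cells, 4 in osteoblast-like, 1 in chondrocyte-like, 4 in macrophage-like and 2 in monocyte-like cells. With 1 library left out, the macrophage-like count by edgeR ran from 0 to 1 (without knockout replicate 2). Tnfsf11 turned in stromal-like cells to 1.54 without both libraries numbered 3, and in osteoblast-like cells to -0.12 without both, -0.87 without doublet removal, -0.30 without integration, -0.30 at lower and -0.33 at higher resolutions. Csf1 turned in endothelial-like cells to 0.042 without doublet removal, Csf1r in osteoclast-like cells to -0.057 at lower resolutions and Nfatc1 in chondrocyte-like cells to 0.078 without integration. With each library left out in turn, the log2 fold change of Tnfsf11 ran from -0.87 to 1.77 over all cells, from -0.93 to 1.13 in stromal-like and from -0.49 to 0.61 in osteoblast-like cells. That of Csf1 ran from -0.042 to 0.26 over all cells, from -0.15 (without knockout replicate 2) to 0.75 in stromal-like and from -0.18 to 0.050 in endothelial-like cells, that of Csf1r from -0.048 to 0.47 in monocyte-like and from -0.11 to 0.19 in osteoclast-like cells, and that of Nfatc1 from -0.64 to 0.0036 in macrophage-like and from -0.41 to 0.28 in chondrocyte-like cells. The log2 difference of the RANKL to OPG ratio ran from 0.16 to 1.79 over all cells and from 0.14 to 1.79 in stromal-like cells, and was 2.55 and 2.58 without both libraries numbered 3 (exact p = 0.333, n = 2 and 2).

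Same-numbered libraries did not deviate together in every pair (correlations from -0.199 to 0.447), so the main comparisons were not paired. Number 1, made with another Cell Ranger version, was its own best match in 8 of 8 sets of cells, number 2 in 2 and number 3, which has another gene list, in 0. Both number 1 libraries stood apart, with 79.6% and 76.3% stromal-like cells (21.2% to 60.6% in the others) and 37.8% and 30.5% few-UMI stromal cells (0.925% to 4.84%). With the replicate number as a block edgeR called 0 genes in all 8 sets of cells, Tnfrsf11b in osteoblast-like cells was -1.24, Tnfsf11 in stromal-like cells turned to 0.16, and the ratio differences stayed at 0.88 and 0.87 (exact p = 0.75, n = 3 pairs).

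The class with the highest level and the largest source changed for some members. Csf1r was highest in macrophage-like cells and the osteoclast-like share of Tnfrsf11a was 53.3% at lower resolutions, while macrophage-like cells were the largest source of Tnfrsf11a under the strict filter (at least 1000 genes, at most 10% mitochondrial UMIs), without integration, at higher resolutions, without control 3, without knockout 2 and without both libraries numbered 3. Depth limits Tnfsf11 in osteocyte-like cells (18 UMIs) and T and NK-like cells (53 UMIs), and only 21 chondrocyte-like cells stand behind knockout 2. Only 19 osteoprogenitor-like and 31 osteoclast-like cells stand behind knockout 1.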

Other observations

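Mast and basophil-like cells, of which control 3 held 23 of 34, had 105 Csf1 UMIs in all. In control 3, the only library with at least 10 such cells, Csf1 stood at 1167 CPM, and no other library gives a replicate.

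A cluster of 491 cells led by Cybb, Pou2f2 and Coro1a could not be named from the markers. Csf1r stood there at 640.5 and 887 CPM in controls 2 and 3 and at 823 and 533 in knockouts 2 and 3, which overlaps the range of macrophage-like and osteoclast-like cells. An unnamed stromal cluster of 547 cells led by Gm37258 and Col10a1 had 318 CPM of Nfatc1 over all libraries.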
